A study of Homo sapiens with 38 samples.

Results

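BT-549, a mesenchymal breast cancer line, was exposed for 48 h to 2.5 uM C24, an inhibitor of the methyltransferase EZH2, or to 0.125% DMSO as vehicle, and polyadenylated RNA was sequenced. The comparison rests on all libraries of these groups, 2 with C24 and 2 with DMSO, which are 4 of the 38 samples of the series, and it covers every gene: 17136 genes were listed and 13394 passed the filter on low values and were tested. The rest of the series holds the same line with MS177, a PROTAC (a molecule that brings its target to a ubiquitin ligase for degradation) aimed at EZH2, and with MS177-N1 or MS177-N2, negative controls of that compound, each at 2.5 uM for 48 h, for 10 BT-549 libraries in all. It also holds T47D and T47D-TR breast cancer cells with C24 or DMSO at the same dose and time, and T47D-TR cells with the EZH2 inhibitor EPZ-6438 at 2.5 uM or 0.05% DMSO for 30 h. All lines grew in RPMI1640 medium with 10% fetal bovine serum and insulin. The labels do not say that the libraries of a group came from separate cultures, so the p-values below measure the spread between these libraries, which may be technical.

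Polycomb repressive complex 2 (PRC2) methylates lysine 27 of histone H3 and keeps many developmental genes silent; EZH2 holds its active site, and EED and SUZ12 are obligate partners. An inhibitor blocks the activity, whereas a degrader removes the protein. The genes described first below belong to another system. Cells make cholesterol from acetyl-CoA through mevalonate and squalene, and the sterol-regulated transcription factors SREBP-2 (gene SREBF2) and SREBP-1 (gene SREBF1) drive the genes of cholesterol and fatty acid synthesis when sterol in the endoplasmic reticulum is low. The escort SCAP carries these factors to the Golgi for cleavage, and INSIG1 holds them back when sterol is plentiful.

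The 4 libraries held 35333136 to 49871789 reads assigned to genes. Each pair was alike across genes, with a Pearson correlation of log2 values of 0.993 for DMSO and 0.992 for C24. Between the groups the correlations ran from 0.978 to 0.995, so a C24 and a DMSO library could be as alike as a pair. The 13394 genes behind these correlations are not independent replicates. The mesenchymal markers of the line were present. The summed level of 8 mesenchymal markers, among them VIM, SPARC and CAV1, was 202200 to 204900 normalized counts with DMSO. It was 193800 to 210300 with C24, against 1071 to 1708 in T47D. Of 12 luminal markers 7 were listed in the BT-549 table, at 26920 to 29670 in sum with DMSO and 23920 to 24410 with C24. The luminal sum in T47D was 519100 to 570300. In BT-549 with DMSO, KRT18 had 21538 and 19306 counts and GATA3 6931 and 6324. The luminal markers ESR1, PGR, EPCAM, SPDEF and TFF1 were not listed in the BT-549 table. Of leukocyte markers 4 of 10 were listed, at 211.8 to 386.8 normalized counts in sum, with PTPRC not listed, and of endothelial markers 1 of 7, at 30.29 to 54.05. Of fibroblast markers 5 of 7 were listed, at 31360 to 37460, with DCN and LUM not listed; the listed ones include THY1 and COL3A1, which mesenchymal lines also express. The replicate 1 libraries stood apart in a way that follows transcript length. For 1476 genes whose longest transcript is under 1500 bases the median deviation from the gene's mean was 0.18 (log2) in DMSO replicate 1 and -0.15 in C24 replicate 1, and for 1122 genes over 8000 bases it was -0.18 and 0.18. In the replicate 2 libraries these medians lay between -0.02 and 0.01. The C24 minus DMSO difference therefore had a median of -0.15 for short and 0.18 for long transcripts, and values are given below with and without the replicate 1 libraries, or with a correction for length, where a group of genes is long or short. In bulk RNA, fewer cells of a kind and less RNA per cell cannot be told apart.

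**Figure D1:**
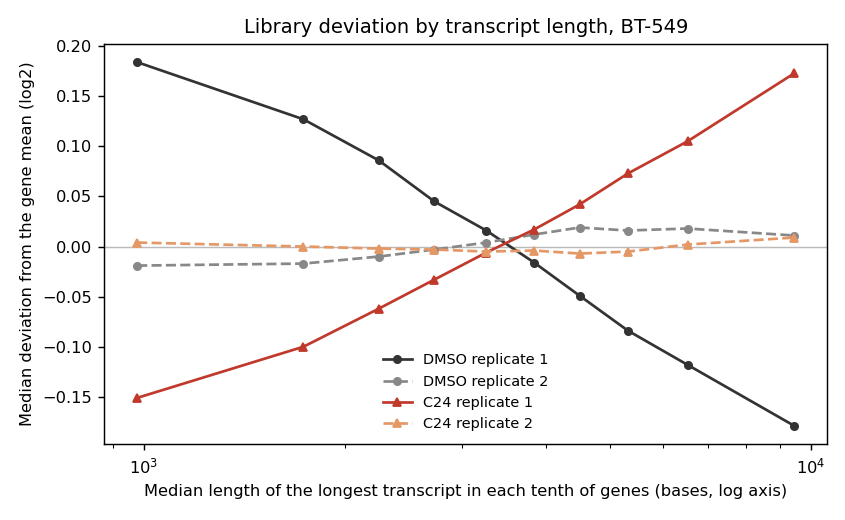
Median deviation of each of the 4 BT-549 libraries from the gene mean (vertical axis, log2) for genes in 10 equal groups by the length of their longest transcript (horizontal axis, bases, log axis); points are medians and lines join one library. DMSO replicate 1 runs from 0.18 for genes under 1500 bases to -0.18 for genes over 8000 bases and C24 replicate 1 the other way, while the replicate 2 libraries stay between -0.02 and 0.02.

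Few genes separated C24 from DMSO beyond the spread of the libraries. Limma was run on the deposited log2 values with Benjamini-Hochberg adjustment over all 13394 genes. Of these, 18 genes (0.134%) passed an adjusted p of 0.05, of which 16 (0.119%) rose and 2 (0.0149%) fell. An unadjusted p under 0.05 was reached by 1604 of the 13394, in either direction. List counts at that p below are to be set beside this share. Among the 16 that rose were SCD, HMGCS1, DHCR7, INSIG1, MVK and MSMO1, which make or regulate sterols or desaturate fatty acids. LIPG, NAT8L, ATCAY, AKAP12, RTN4R, SLX1B-SULT1A4 and ZBTB45P2 rose too, and the 2 that fell were RNA5-8SN2 and TGFB2-OT1. The number called depended on single libraries: it was 43 with C24 replicate 1 left out, 213 with C24 replicate 2 left out, 59 with DMSO replicate 1 left out and 787 with DMSO replicate 2 left out. It was 7 with a filter of more than 2 log2 units above the lowest value.

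Of 25 tested members of a list of cholesterol synthesis and uptake genes, 8 rose and 0 fell, with 22 at an unadjusted p under 0.05 in the upward direction and 0 in the downward direction; limma voom on the recovered reads also called 8 higher and 0 lower. The median difference over the list was 0.74 (log2, deposited scale) against -0.01 over all tested genes. In 22 of the 25 genes both C24 libraries lay above both DMSO libraries, which was so for 21.4% of all tested genes; ACAT2, EBP and PMVK overlapped between the groups. NPC1L1, the intestinal sterol importer on the list, was not listed. With the replicate 2 libraries alone, which allow no test, all 25 were higher with C24 and the median log2 ratio was 0.85. The median length of their longest transcripts, 3087 bases, was close to the 3554 bases of all tested genes, and the median difference after a correction for length was 0.76, with 14 called. The count called was 9 and 11 when C24 replicate 1 or C24 replicate 2 was left out, and 12 and 17 when DMSO replicate 1 or DMSO replicate 2 was.

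**Figure D2:**
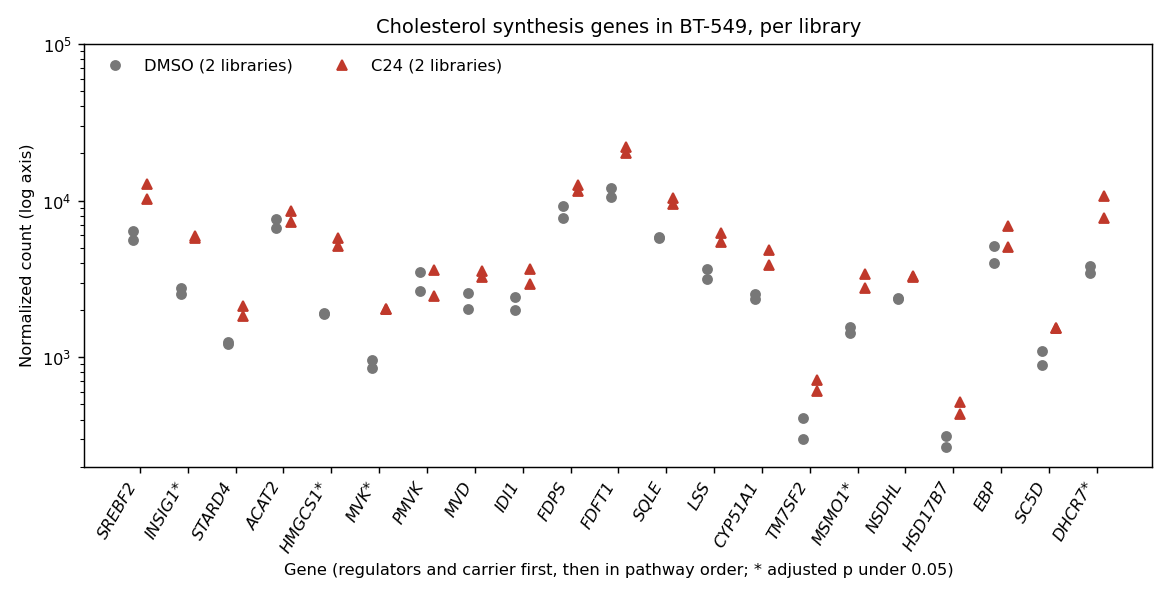
Normalized count (vertical axis, log axis) of 21 tested cholesterol synthesis genes and their regulators in each of the 2 DMSO libraries (grey circles) and 2 C24 libraries (red triangles); an asterisk marks an adjusted p under 0.05. The triangles lie above the circles for 18 genes and overlap them for ACAT2, EBP and PMVK.

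The regulators come first. SREBF2, which encodes the transcription factor of the cholesterol program, had 5586 and 6402 normalized counts with DMSO and 12755 and 10275 with C24. The groups did not overlap and the difference was 1.92-fold, but at 0.92 ± 0.15 (log2, SE) it did not pass (adjusted p = 0.0757). INSIG1, the sterol-regulated brake on SREBP processing and itself a target of the pathway, had 2760 and 2522 counts with DMSO and 5758 and 5959 with C24. It rose 2.22-fold, a log2 difference of 1.1 ± 0.12 (SE, adjusted p = 0.0121), with pairs that were tight and far apart. STARD4, a cytosolic sterol carrier, was 1.60-fold higher without passing (adjusted p = 0.143).

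In the upper, mevalonate part of synthesis HMGCS1 (chr5:43287470-43313412), the HMG-CoA synthase, had 1875 and 1920 counts with DMSO and 5129 and 5762 with C24. It rose 2.87-fold (1.43 ± 0.12, SE, adjusted p = 0.00352), with the groups far apart. An antisense gene overlaps HMGCS1, and because strand use in counting is not given in the sources used here, reads of the pair cannot be told apart. MVK, mevalonate kinase, had 962 and 859 counts with DMSO and 2019 and 2033 with C24. The C24 pair was tight, and MVK rose 2.23-fold (1.02 ± 0.12, SE, adjusted p = 0.0159); it lies opposite MMAB on the other strand, so the same limit on strand holds. PMVK, the next kinase, had a ratio of 0.985, with a log2 interval of -0.47 to 0.41 (95%). MVD, IDI1 and FDPS, which carry the chain to farnesyl diphosphate, were 1.48-fold, 1.49-fold and 1.42-fold higher with both C24 libraries on top, and none of these passed. ACAT2, which condenses acetyl-CoA before HMGCS1, was 1.11-fold higher with overlapping groups (adjusted p = 0.66).

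In the squalene and post-squalene part, FDFT1, SQLE and LSS (squalene synthase, squalene epoxidase and lanosterol synthase) were 1.86-fold, 1.71-fold and 1.70-fold higher with non-overlapping groups, at adjusted p-values of 0.0735, 0.0797 and 0.111. CYP51A1 and TM7SF2, the demethylase and a reductase that act on lanosterol and its product, were 1.78-fold and 1.86-fold higher without passing. MSMO1, the methylsterol oxidase of the next step, had 1552 and 1431 counts with DMSO and 2754 and 3402 with C24. It rose 2.06-fold (0.96 ± 0.14, SE, adjusted p = 0.0464), near the threshold although the groups did not overlap. DHCR7, which makes cholesterol from 7-dehydrocholesterol, had 3444 and 3813 counts with DMSO and 10647 and 7739 with C24. Its C24 libraries differed from each other more than its DMSO libraries did, and DHCR7 rose 2.53-fold (1.28 ± 0.16, SE, adjusted p = 0.0246). NSDHL, HSD17B7 and SC5D were 1.39-fold, 1.64-fold and 1.56-fold higher without passing, and EBP was 1.32-fold higher with overlapping groups.

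Of 22 tested genes of fatty acid synthesis and desaturation 1 rose and 0 fell; 11 were higher at an unadjusted p under 0.05 and 0 lower, voom called 3 higher and 0 lower, and the list's median difference was 0.26. SCD (chr10:100347233-100364826), the desaturase that makes oleate and palmitoleate, had 15747 and 16796 counts with DMSO and 58945 and 44379 with C24. The groups were far apart, and SCD rose 3.18-fold, a log2 difference of 1.64 ± 0.17 (SE, adjusted p = 0.00997). SCD5, the other human stearoyl-CoA desaturase, had a ratio of 0.864 (adjusted p = 0.481). FASN, the fatty acid synthase, had 12934 and 17106 counts with DMSO and 38511 and 30219 with C24, a ratio of 2.29 that did not pass (adjusted p = 0.0656). FADS2, the delta-6 desaturase of polyunsaturated fatty acids, had 15104 and 14500 against 36198 and 27676, a ratio of 2.16 (adjusted p = 0.0578). ACACA, the carboxylase that supplies malonyl-CoA, was 2.0-fold higher (adjusted p = 0.142) and FADS1 1.73-fold (adjusted p = 0.111). All 4 had non-overlapping groups. SREBF1 had 10782 and 9778 counts with DMSO and 15548 and 13215 with C24, a ratio of 1.40 (adjusted p = 0.332), and the elongases ELOVL1 and ELOVL5 had ratios of 1.00 and 1.14. Transcripts on this list are longer than average, with a median of 4432 bases; after the length correction the median difference was 0.21 and SCD, FASN, FADS1 and FADS2 passed, and in the replicate 2 libraries alone 16 of 22 were higher with a median log2 ratio of 0.20.

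Genes of cholesterol export and targets of the liver X receptors, which act when sterol is high, were described as a list of their own. This list also holds NR1H2 and NR1H3, the genes of these receptors, and NPC1, NPC2 and SREBF1. Of 11 tested members SCD alone rose, which is on both lists, and 0 fell by either limma or voom; 4 were higher and 0 lower at an unadjusted p under 0.05. ABCA1, the main cholesterol exporter, had 127 and 170 counts with DMSO and 142 and 101 with C24, overlapping groups with a ratio of 0.819 (adjusted p = 0.61). MYLIP, a ubiquitin ligase switched on by these receptors, was 1.21-fold higher without passing. APOE, an apolipoprotein, had 239 and 140 counts with DMSO and 398 and 496 with C24, a 2.36-fold difference with no overlap that did not pass (adjusted p = 0.119). LIPG (chr18:49561479-49599185), the endothelial lipase that acts on high-density lipoprotein, rose from 13.5 and 16.5 to 94.7 and 97.1 counts. That was the highest ratio among called genes with reads in every library, 6.39-fold; on the deposited scale, which compresses low counts, the difference was 0.83 ± 0.10 (SE, adjusted p = 0.0159). LIPG did not pass after the length correction (adjusted p = 0.0933). It passed the filter on low values only through its C24 libraries, which limits what its p-value can show.

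The promoters of the leading sterol genes are shown because these genes moved together and because sterol-regulated promoters are known to use the CCAAT-binding factor NF-Y beside SREBP. The lines below print 5′ to 3′ the part of the 250 bases before the RefSeq start (GRCh38.p14) that lies outside annotated exons, with CCAAT or its reverse complement ATTGG in capitals. SCD lies at chr10:100346983-100347123 on the plus strand, HMGCS1 at chr5:43313513-43313662 on the minus strand and MSMO1 at chr4:165327419-165327622 on the plus strand. DHCR7 lies at chr11:71448436-71448643 on the minus strand and INSIG1 at chr7:155297628-155297775 on the plus strand. MSMO1, DHCR7 and INSIG1 were added after their values were seen. The DHCR7 stretch lies inside the RefSeq span of the gene, which reaches 71449043, so the start used for it is one within that span.
SCD: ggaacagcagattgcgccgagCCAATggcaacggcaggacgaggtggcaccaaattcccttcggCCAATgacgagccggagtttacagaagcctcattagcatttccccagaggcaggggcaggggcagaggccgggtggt
HMGCS1: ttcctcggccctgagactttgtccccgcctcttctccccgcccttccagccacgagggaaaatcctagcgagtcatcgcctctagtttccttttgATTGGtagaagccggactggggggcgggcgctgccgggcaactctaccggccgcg
MSMO1: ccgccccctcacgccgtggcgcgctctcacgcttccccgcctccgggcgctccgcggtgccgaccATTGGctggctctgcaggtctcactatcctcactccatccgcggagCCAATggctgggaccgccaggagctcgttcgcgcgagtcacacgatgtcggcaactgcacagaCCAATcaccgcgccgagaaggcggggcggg
DHCR7: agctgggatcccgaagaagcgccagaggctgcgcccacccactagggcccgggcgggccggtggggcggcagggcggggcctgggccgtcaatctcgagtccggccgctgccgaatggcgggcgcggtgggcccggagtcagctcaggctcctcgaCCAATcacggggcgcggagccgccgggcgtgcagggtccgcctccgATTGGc
INSIG1: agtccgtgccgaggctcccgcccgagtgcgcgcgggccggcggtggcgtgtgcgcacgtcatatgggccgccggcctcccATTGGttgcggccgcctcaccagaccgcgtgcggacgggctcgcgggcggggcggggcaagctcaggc

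Of the 25 tested cholesterol genes 18 had a promoter entry, and 15 of these (83.33%) held CCAAT on either strand in the 250 bases before the start, against 35.51% of the 9977 tested genes with an entry. GGGCGG or its reverse complement CCGCCC, the core of the GC box, was found in 17 of 18 (94.44%) against 69.22%. The sterol element form TCACNCCAC or its reverse complement GTGGNGTGA was found in 1 of 18 (5.56%), SREBF2, at 133 bases before the start, against 0.86%. SCD held 2 CCAAT matches, HMGCS1 and DHCR7 2 each, INSIG1 1, MSMO1 4 and MVK 5, counting those outside the printed stretch. Among fatty acid genes 10 of 21 (47.62%) held CCAAT. A match is a description of these letters and not of a bound site. FDFT1, SQLE, ACAT2 and FASN had no entry.

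Of the other genes that rose, NAT8L, which makes N-acetylaspartate from acetyl-CoA and aspartate, had 314 and 363 counts with DMSO and 706 and 730 with C24, a rise of 2.12-fold (0.82 ± 0.11, SE, adjusted p = 0.0386). ATCAY, which encodes caytaxin, rose from 60.6 and 65.1 to 206 and 190 counts (3.15-fold, adjusted p = 0.0246). Neither pair of groups overlapped. RTN4R, the Nogo receptor of neurites, rose from 81.9 and 91.5 to 250.01 and 229 (2.76-fold, adjusted p = 0.0335). AKAP12, a scaffold for protein kinase A, had 430 and 463 counts with DMSO and 930 and 848 with C24 (1.99-fold, adjusted p = 0.047), with no overlap. AKAP12 is the gene whose call was lost most often among alternatives, in 5 of 17, with an adjusted p of up to 0.239.

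The remaining 4 called genes were at 0 reads in both libraries of one group, and each has a close copy or a gene on the same bases, so that counting could shift reads between them. They passed the filter on low values only through the group where they had reads, so their adjusted p-values add no support. SLX1B-SULT1A4 (chr16:29455091-29464980), a readthrough transcript that shares exons with SLX1B and SULT1A4, had 0 reads in both DMSO libraries and 161 and 174 with C24, at least 45.1-fold higher against a floor of 3 reads per library (adjusted p = 0.000226). Its neighbor SLX1B had 26.9 and 151 normalized counts with DMSO and 28.8 and 39.6 with C24. ZBTB45P2, a processed pseudogene of ZBTB45, had 0 reads with DMSO and 53 and 67 with C24, at least 16-fold higher (adjusted p = 0.00352); ZBTB45 itself had 901 and 979 counts against 1157 and 1094. RNA5-8SN2 (chr21:8212571-8212727), one of several copies of a short ribosomal RNA gene, had 175 and 166 reads with DMSO and 0 with C24, at least 70-fold lower (adjusted p = 0.000112), while the copy RNA5-8SN1 had 209 and 114 counts with DMSO and 52.5 and 340 with C24. TGFB2-OT1 (chr1:218442626-218443995), a noncoding RNA inside the last exon of TGFB2, had 81 and 46 reads with DMSO and 0 with C24, at least 26.1-fold lower (adjusted p = 0.00754), and TGFB2 had 268 and 312 against 404 and 400. Zeros also occurred in single libraries of other treatments: SLX1B-SULT1A4 had 97.3 and 0 normalized counts with MS177 and 0 and 211 with MS177-N1. RNA5-8SN2 had 1757 and 0 with MS177-N1. With all 10 BT-549 libraries in the fit, SLX1B-SULT1A4, RNA5-8SN2 and TGFB2-OT1 no longer passed (adjusted p = 0.522, 0.516 and 0.316) and ZBTB45P2 did.

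Past these, the 4 next genes on the falling side by unadjusted p did not pass. MSANTD3-TMEFF1, a readthrough of its 2 neighbors, had 404 and 261 counts with DMSO and 107 and 103 with C24 (adjusted p = 0.0578). H2AC6, a histone H2A gene, had 1664 and 1381 against 735 and 804 (1.98-fold lower, adjusted p = 0.0578), and HMGB1P5, a pseudogene of HMGB1, 1686 and 1422 against 846 and 779 (adjusted p = 0.0656). SOX8, a SOX family transcription factor, had 784 and 581 against 323 and 298, a difference of -0.83 on the log2 scale (adjusted p = 0.0757). None of these groups overlapped.

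No subunit of the target complex passed the test at the RNA level. EZH2 (chr7:148807383-148884291) had 3081 and 3237 counts with DMSO and 3033 and 3190 with C24. These groups overlapped, and the log2 difference was -0.02 ± 0.12 (SE), with a 95% interval of -0.29 to 0.25 (adjusted p = 0.952). EZH1, the other PRC2 methyltransferase, had 730 and 822 counts with DMSO and 792 and 702 with C24 (adjusted p = 0.883). SUZ12 had 5110 and 5885 against 4842 and 5349 (adjusted p = 0.731), again overlapping. EED, the subunit that reads the methyl mark, had 2031 and 1758 counts with DMSO and 1322 and 1547 with C24, which do not overlap; the ratio was 0.757 and did not pass (adjusted p = 0.382). Over 14 PRC2 subunits 0 passed by limma or voom, 1 was lower and 0 higher at an unadjusted p under 0.05, and the median difference was -0.01 (-0.07 after the length correction). FOXM1, a driver of mitotic genes, had 10252 and 11092 counts with DMSO and 12746 and 10883 with C24 (adjusted p = 0.661), and MYC 3916 and 4120 against 4568 and 3602 (adjusted p = 0.97).

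No member of 3 lists of PRC2-linked genes passed on the deposited values. Of 74 tested developmental factors known to carry the Polycomb mark in many cells, 0 passed by limma or voom. At an unadjusted p under 0.05, 6 were higher and 3 lower, near the share of all tested genes, 1604 of 13394 in either direction. Both C24 libraries lay above both DMSO libraries for 25 and below for 19, against 21.4% and 24.1% of all tested genes. The median difference was 0.07. POU3F2, a neural POU factor, was at the upper end with 269 and 322 counts against 501 and 494 (1.68-fold, adjusted p = 0.162), and SOX8 at the lower end. SOX8 passed after the length correction, as the 1 member called (adjusted p = 0.0476), and it also passed with each of the 4 libraries left out in turn. Without DMSO replicate 2 members of the list were called in both directions, in a fit that called more of all genes too. Of 19 tested HOX genes 0 passed by either tool, with 2 lower and 0 higher at an unadjusted p under 0.05. Their transcripts are short, with a median of 2060 bases, and the median difference was -0.12, or -0.10 after the length correction. HOXB7 was called lower without DMSO replicate 2, where more of all genes were called too. For the HOX genes both C24 libraries lay above both DMSO libraries for 3 and below for 9, against the same 21.4% and 24.1%. Of 41 tested genes reported as repressed by EZH2 in cancer cells 0 passed by either tool. On this list 9 were higher and 0 lower at an unadjusted p under 0.05, against 1604 of all 13394 genes in either direction. The median was 0.05. Both C24 libraries lay above both DMSO libraries for 18 of the 41 and below for 7, against the same shares of all genes. Among these SFRP2, a secreted WNT antagonist, had 723 and 692 counts with DMSO and 1233 and 1141 with C24 (1.68-fold, adjusted p = 0.111), and IGFBP3, which binds insulin-like growth factors, 3585 and 3901 against 5521 and 5458 (1.47-fold, adjusted p = 0.198). Neither pair of groups overlapped, and neither gene passed. After the length correction SFRP2 passed, the 1 member called (adjusted p = 0.0288). SFRP2 was called without C24 replicate 2 as well. Without DMSO replicate 2 further members were called, all higher, in a fit that called more of all genes too. CDKN1C, a cell cycle inhibitor often named as a PRC2 target, had 311 and 201 counts with DMSO and 324 and 347 with C24 (adjusted p = 0.448). CDKN2A had a ratio of 0.948. The methyl mark was not measured in these libraries.

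**Figure D3:**
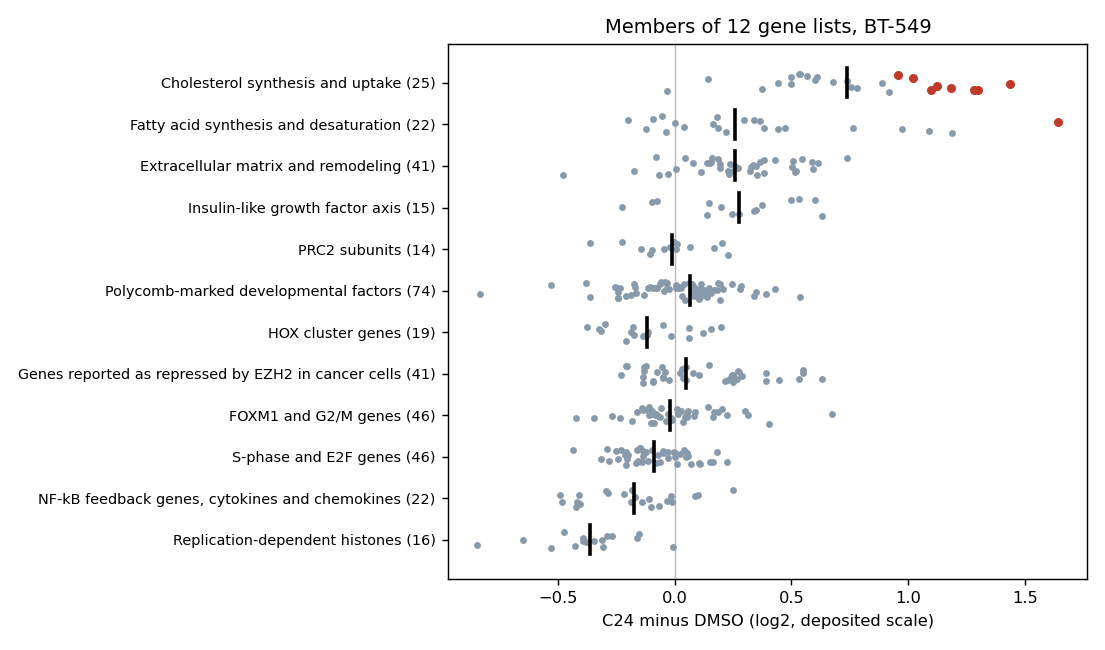
C24 minus DMSO difference in BT-549 (horizontal axis, log2 on the deposited scale) for the tested members of 12 gene lists, with the number tested in brackets; each point is a gene, red points passed an adjusted p of 0.05 and black bars are list medians. The cholesterol list has its median at 0.74 and 8 red points, the fatty acid list 1, and the other 10 lists none.

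Cell cycle genes showed no call. Of 46 tested FOXM1 and G2/M genes 0 passed by limma or voom (3 higher and 1 lower at an unadjusted p under 0.05, median -0.02, or 0.02 after the length correction), and of 46 S-phase genes 0 passed by either tool (0 higher and 2 lower, median -0.09), with PCNA, the replication clamp, at 15656 and 12884 counts with DMSO and 9305 and 11755 with C24 (adjusted p = 0.382). Of 45 ATF4 and unfolded protein response genes 0 passed by either tool (4 higher and 0 lower at an unadjusted p under 0.05, median 0.07, or 0.01 after the length correction). Several lists had medians away from 0 with no member passing. Their counts at an unadjusted p under 0.05 stand beside 1604 of all 13394 tested genes, in either direction. Extracellular matrix genes had a median of 0.26 over 41 genes, with transcripts of 5993 bases at the median, 0 called by limma or voom and 16 higher and 1 lower at an unadjusted p under 0.05; the median was 0.19 after the length correction and 0.11 in the replicate 2 libraries alone. COL3A1, a fibrillar collagen, had 15204 and 16685 counts against 22199 and 18579. Axon guidance genes had a median of 0.23, 6265 bases at the median and 0 called by either tool (11 higher and 0 lower at an unadjusted p under 0.05); the median was 0.10 after the correction. H3K27 demethylases and opposing chromatin factors, 8568 bases at the median, went from 0.32 to 0.15, also with 0 called by either tool (3 higher and 0 lower at an unadjusted p under 0.05). The insulin-like growth factor axis had a median of 0.28 over 15 genes, with transcripts of 4414 bases at the median and 0.21 after the correction, and 0 called by either tool (7 higher and 0 lower at an unadjusted p under 0.05), and IGF2R, a receptor that clears the growth factor, was 1.56-fold higher without passing.

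On the low side, cytokine and NF-kB feedback genes had a median of -0.18 over 22 genes, with 0 called by limma or voom and 6 lower and 0 higher at an unadjusted p under 0.05. Their transcripts had a median of 2416 bases, and the median difference was -0.115 after the length correction. CXCL1, a neutrophil chemokine, had 12060 and 9456 counts with DMSO and 6933 and 8237 with C24 (adjusted p = 0.353). Replication-dependent histone genes, whose mature transcripts mostly carry no poly(A) tail, were lower with C24 for 16 of 16 tested, with a median of -0.36 and a median length of 1385 bases. Limma called 0 of them, with 13 lower and 0 higher at an unadjusted p under 0.05, and voom called 1 of 37 lower. Of all 13394 tested genes 1604 had such an unadjusted p by limma, in either direction. The median was -0.24 after the length correction, with 1 called lower, and in the replicate 2 libraries alone 15 of 16 were lower with a median log2 ratio of -0.55 (1 was higher).

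C24 was next set beside the other compounds in BT-549, with all 10 libraries in one limma fit of log2(normalized count + 1) over 16364 genes, which share 1 estimate of the spread. Dose and time were matched at 2.5 uM and 48 h, and 3 pairs of compounds were compared, with p-values adjusted over genes within each pair and not over the pairs. C24 differed from MS177 at 5833 genes (35.6%), from MS177-N2 at 132 (0.807%) and from MS177-N1 at 1 (0.00611%), which is on the cholesterol list. At an unadjusted p under 0.05, 386 genes were higher and 176 lower with C24 than with MS177-N1. Cholesterol genes were higher with C24 than with MS177 for 24 of 25 (18.8% of all genes were called higher), with a median difference of 1.19 (log2). They were higher than with MS177-N2 for 7 of 25 (0.556% of all genes), median 0.53, and than with MS177-N1 for 1 of 25, median 0.58; 0 were called lower in any of the 3 pairs, at the adjusted or the unadjusted p. An unadjusted p under 0.05 was reached upward by 22 of 25 against each of MS177-N1 and MS177-N2. Without C24 replicate 1, C24 replicate 2, MS177-N2 replicate 1 and MS177-N2 replicate 2 the count against MS177-N2 was 4, 1, 1 and 0 for the list and 66, 39, 31 and 42 for all genes. Against MS177-N1 the list's count was 0 without C24 replicate 1 and without MS177-N1 replicate 1, and against MS177 all genes called were 3358 without C24 replicate 1 and 3813 without MS177 replicate 2.

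HMGCS1 had 2758 and 2923 normalized counts with MS177-N1, 2912 and 2439 with MS177-N2 and 1353 and 1301 with MS177, on the scale on which C24 gave 5129 and 5762. The C24 libraries were above all others. On this scale DMSO gave 1875 and 1920, so both negative controls also lay above DMSO, and MS177 lay below it. The negative controls were not tested against DMSO. C24 exceeded MS177-N2 by 1.03 ± 0.12 (log2, SE, adjusted p = 0.00479) and MS177 by 2.03 (adjusted p = 5.77e-06), while against MS177-N1 the difference of 0.94 (95% interval 0.67 to 1.21) did not pass (adjusted p = 0.127). The HMGCS1 call against MS177-N2 was lost without C24 replicate 2 and without MS177-N2 replicate 2 (adjusted p of up to 0.0678). SCD had 24643 and 27986 counts with MS177-N1, 34060 and 26491 with MS177-N2 and 8667 and 6956 with MS177. With DMSO it had 15747 and 16796, again below both negative controls and above MS177. Here C24 exceeded MS177 by 2.72 (adjusted p = 1.12e-05), and the differences from MS177-N1, 0.96 (95% interval 0.55 to 1.37, adjusted p = 0.477), and MS177-N2, 0.77 (0.36 to 1.18, adjusted p = 0.119), did not pass although the C24 libraries lay above both. DHCR7 was likewise above both negative controls without passing, by 0.68 (0.32 to 1.05) against MS177-N1 and by 0.74 (0.38 to 1.10) against MS177-N2. LIPG was 3.07-fold above MS177-N1, which did not pass (adjusted p = 0.376), and 3.75-fold above MS177-N2 (adjusted p = 0.0174). That call was lost without any 1 of the 4 C24 and MS177-N2 libraries (adjusted p of up to 0.186).

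**Figure D4:**
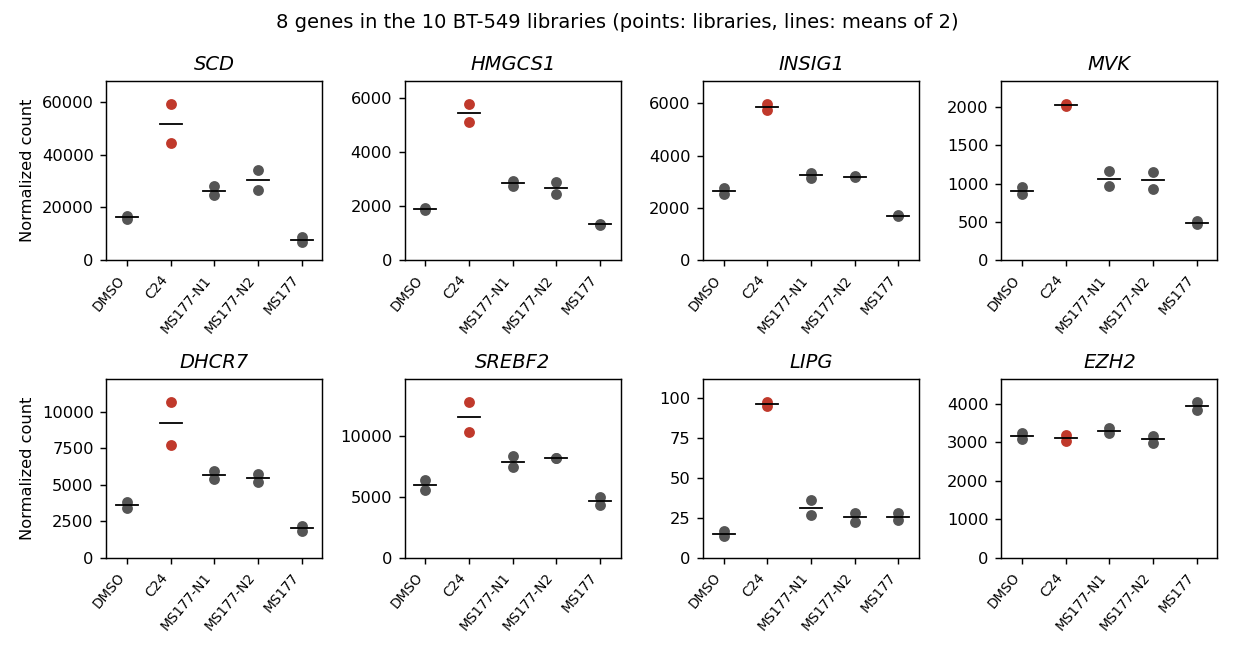
Normalized count (vertical axes, linear from 0) of 8 genes in the 10 BT-549 libraries by treatment (DMSO, C24, MS177-N1, MS177-N2 and MS177, 2 libraries each); points are libraries, with C24 in red, and lines are means. C24 is the highest treatment for the 7 lipid genes, MS177 the lowest for SCD, HMGCS1, INSIG1, MVK, DHCR7 and SREBF2, and EZH2 is highest with MS177.

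Among the compounds, with DMSO left aside, CDKN1C had the order of HMGCS1, highest with C24 and lowest with MS177, and EZH2 had another order. EZH2 was lower with C24 than with MS177 by 0.34 (95% interval -0.56 to -0.12 for C24 minus MS177, adjusted p = 0.0259), a call lost in 6 of 7 alternatives (adjusted p of up to 0.127). It differed from MS177-N1 by -0.09 (-0.31 to 0.14) and from MS177-N2 by 0.02 (-0.21 to 0.24). CDKN1C was 8.95-fold higher with C24 than with MS177 (adjusted p = 2.59e-05) and 2.66-fold higher than with MS177-N2 (adjusted p = 0.0365). It was 1.87-fold higher than with MS177-N1 without passing. The ratio of C24 over DMSO was smaller, 1.31, so the CDKN1C means of both negative controls lay below DMSO, unlike those of HMGCS1. The CDKN1C call against MS177-N2 was lost in 5 of 7 alternatives, which include leaving out any 1 of the 4 libraries compared (adjusted p of up to 0.299). Fatty acid genes were higher with C24 than with MS177 for 14 of 22, median 0.70. Against MS177-N1 and MS177-N2 the limma count was 0 of 22 for each, with 4 higher and 0 lower at an unadjusted p under 0.05 and medians of 0.12 and 0.16. These comparisons all use the same C24 libraries.

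T47D, a luminal line, was given the same dose for the same time. The difference of responses (BT-549 minus T47D) was tested as an interaction with limma over 15330 genes present in both tables: 9 (0.0587%) had a higher response in BT-549 and 0 a lower one, with 474 and 504 at an unadjusted p under 0.05. The 9 include HMGCS1, MVK, INSIG1, FDFT1 and SQLE, 5 of the 24 cholesterol genes in both tables, and SCD; the other 3 are SLC29A2, SLX1B-SULT1A4 and BMS1P4-AGAP5. HMGCS1 had 4199 and 3989 counts with DMSO and 4123 and 3879 with C24 in T47D, overlapping groups with a ratio of 0.977, and the responses differed by 1.55 ± 0.12 (log2, SE, adjusted p = 0.00676). SCD had 52847 and 51458 counts with DMSO and 46177 and 46186 with C24 in T47D, lower with C24 in both, and the responses differed by 1.83 ± 0.18 (SE, adjusted p = 0.0217). Of 11 alternatives the call of the difference was lost in 3 for HMGCS1 and in 5 for SCD, which include leaving out either T47D C24 library. DHCR7 differed in response by 1.46 without passing (adjusted p = 0.0796).

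Over the 24 cholesterol genes, the median log2 ratio of C24 over DMSO was -0.14 in T47D, with 3 of 24 higher, against 0.77 in BT-549, with 24 of 25. In T47D 15 of 24 had both C24 libraries below both DMSO libraries and 0 above, against 22% and 22.4% of all genes in that table. The calls of the difference rest on few libraries: without either T47D C24 library 0 cholesterol genes passed, without T47D DMSO replicate 1 and 2 it was 3 and 1, without either BT-549 DMSO library 2, and without BT-549 C24 replicate 1 and 2 it was 9 and 8. For all genes these counts were 1 and 2 without T47D C24 replicate 1 and 2, 15 and 5 without T47D DMSO replicate 1 and 2, 3 and 14 without BT-549 DMSO replicate 1 and 2, and 23 and 21 without BT-549 C24 replicate 1 and 2. With the replicate number as a block within each line 1 gene and 0 cholesterol genes passed. T47D had a response of its own to C24, with 100 of 11803 genes called (0.847%), 95 higher (0.805%) and 5 lower (0.0424%).

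T47D-TR values are given side by side with no test against BT-549, since these tables lie on other scales and their depth is unknown. With C24 for 48 h the median log2 ratio over 24 cholesterol genes was 0.09, with 15 of 24 higher, 2 above and 2 below both DMSO libraries; of all genes 13.2% were above and 14.3% below. HMGCS1 had 2018 and 2106 normalized counts with DMSO and 2146 and 1995 with C24, and SCD 21885 and 23621 against 22796 and 17569; both overlapped. With EPZ-6438 for 30 h, another time and vehicle, the median was 0.01 over 24 genes, HMGCS1 had 1528 and 1565 counts with DMSO and 1393 and 974 with the inhibitor, and DHCR7 2888 and 3050 against 3167 and 1601. EZH2 itself had ratios of 1.01 with C24 and 1.02 with EPZ-6438 in T47D-TR and 1.01 with C24 in T47D.

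**Figure D5:**
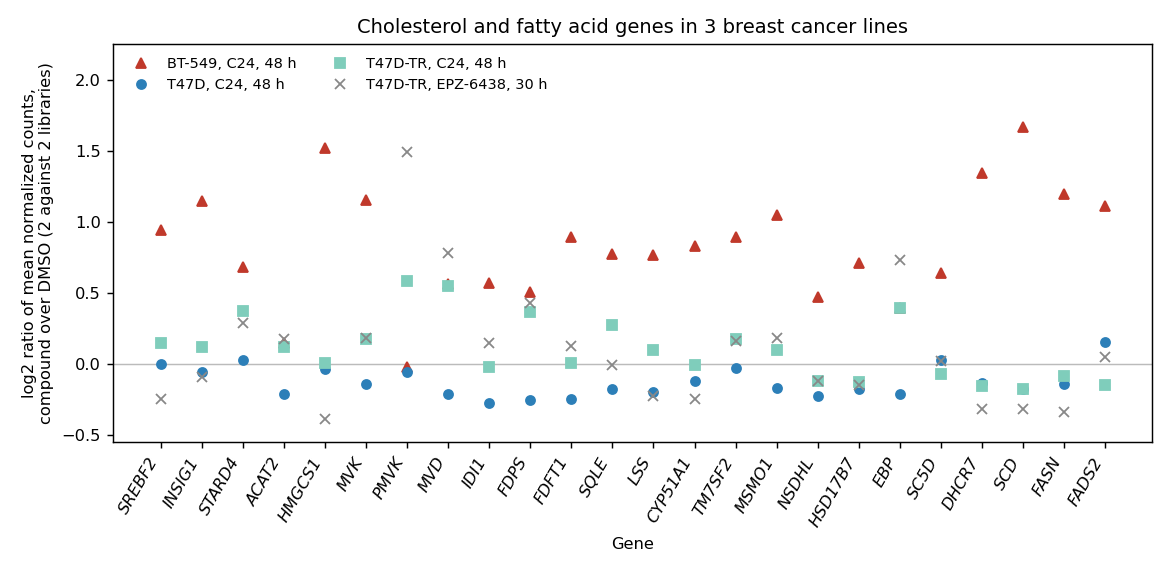
Log2 ratio of mean normalized counts, compound over DMSO (vertical axis, 2 against 2 libraries), for 21 cholesterol genes and SCD, FASN and FADS2 in BT-549, T47D and T47D-TR with C24 for 48 h and in T47D-TR with EPZ-6438 for 30 h. The BT-549 triangles lie above the other lines with C24 for each gene shown except PMVK and EBP, with HMGCS1 and SCD at the top, and the T47D circles lie at or below 0 for 19 of 21 cholesterol genes.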

How the data were processed

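RNA was extracted with the RNeasy Mini kit and sequenced from NEBNext Ultra II RNA libraries, per the labels' protocols. RSEM, DESeq and hg38 are named in the submitters' processing notes, without versions. The deposited values of each comparison are log2 values, variance-stabilised by the authors in a table of its own; the lowest value of the table stands for a count of 0. Undoing the transform gave normalized counts, and dividing by each library's step gave whole reads for 100% of values up to 1000 reads (tolerance 0.05) in BT-549 and T47D and for 10.1% to 17.1% in T47D-TR. RSEM counts are estimates, so a read shared by 2 genes may be split between them.

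Tested genes exceeded the lowest value by more than 1 log2 unit in 2 or more libraries; the test was limma 3.58.1 (R 4.3.3; mean trend, robust, two-sided) with Benjamini-Hochberg adjustment over all of them at 0.05. Compounds and lines were compared on log2(normalized count + 1) for genes that reached 10 normalized counts in at least 2 libraries, and the BT-549 tables were brought to one scale through their shared DMSO libraries. The test was tried on simulated data with the same dispersion for all genes and no drift with transcript length. There it recovered 80% of 1.5-fold and 98% of 2-fold changes, with 10 false calls. The libraries here do have that drift, so recovery in them may differ. No set test was run: lists are described by counts and medians. The members and lists were chosen with earlier results of these data known.

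The genes named are the PRC2 subunits, FOXM1, MYC and CDKN1C, up to 14 rises and 14 falls with the largest log2 differences among called genes (or, with fewer than 6 called in a direction, the smallest unadjusted p up to 6), and list members that are called or highly expressed; AKAP12, RTN4R and the list members outside this rule were added after their values were seen. Promoters come from RefSeq (GRCh38.p14). Some called genes and list members are counted but not reported by name here. The promoters of SLX1B-SULT1A4, TGFB2-OT1 and RNA5-8SN2 were not printed. Labels give replicate numbers but no shared animal, batch or day; deviations of same-numbered libraries had a correlation of -0.576, so the numbers were not taken as pairs. The pseudocount, filter, scaling, tool, fit, replicate block and single libraries were varied; a fit that leaves a group with 1 library assumes that it varies like the others.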

Additional observations from a re-analysis of the deposited data

Results flagged for a closer look

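The response to C24 differed between BT-549 and T47D by a limma test of the difference for 9 genes, all with a higher response in BT-549. On the log2(normalized count + 1) scale the differences (BT-549 minus T47D) were 1.55 for HMGCS1, 1.29 for MVK, 1.83 for SCD, 1.21 for INSIG1, 1.14 for FDFT1 and 0.95 for SQLE. SLC29A2, a nucleoside transporter, differed by 1.5, with 25.8 and 28.7 counts with DMSO and 75.1 and 71.5 with C24 in BT-549 against 3539 and 3568, and 3048 and 3599, in T47D. SLX1B-SULT1A4 differed by 7.89 and BMS1P4-AGAP5 by 6.22; both are readthrough transcripts at 0 in the BT-549 DMSO libraries, so these 2 values depend on the pseudocount. SLX1B-SULT1A4 had 550 and 775 counts with DMSO and 295 and 585 with C24 in T47D, and BMS1P4-AGAP5 had 0 and 0 against 39.1 and 28.7 in BT-549 and 74.6 and 127 against 26.0 and 75.9 in T47D. With the replicate number as a block within line 1 of the 9 passed, SLX1B-SULT1A4, whose 0 counts with DMSO in BT-549 limit what its p-value can show.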

How the results depend on the processing

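In BT-549, C24 against DMSO called 18 genes and 8 cholesterol genes. Of the other settings, log2(normalized count + 5) gave 28 genes, a filter of more than 2 units 7, voom 35 and quantile normalization 29, and leaving out 1 library gave 43 to 787 genes and 9 to 17 cholesterol genes. After the data were seen, values corrected for transcript length gave 37 genes and 14 cholesterol genes. With the replicate block 145 genes (111 higher) and 14 cholesterol genes were called, and with the crossed pairing as a replicate block, also added afterwards, 2807 and 23; same-numbered libraries correlated negatively, and the labels give no reason to pair either way. Of the Polycomb-marked factors SOX8 and SOX18 were called lower with the replicate block. SCD, HMGCS1, DHCR7, INSIG1 and MVK passed under all 17 alternatives run for them (largest adjusted p = 0.0376, DHCR7). Of the other called genes named, MSMO1 and NAT8L lost their calls in 2, RTN4R in 3, AKAP12 in 5, and ATCAY and LIPG in 1 each. SLX1B-SULT1A4, RNA5-8SN2 and TGFB2-OT1 lost theirs in 1 each and ZBTB45P2 in 0 of 16. These last genes had 0 reads in one group and passed the filter only through the other, so calls kept by them add no support. Against MS177 leaving out 1 library gave 3358 to 4999 genes and 21 to 23 cholesterol genes (main 5833 and 24). Against MS177-N1 (1 and 1) the compared 4 libraries alone gave 4 genes, the replicate block 0 and 0, and leaving out 1 library 0 to 7 and 0 to 1. Against MS177-N2 (132 and 7) the compared 4 libraries alone gave 455 and 13, the replicate block 84 and 4, and leaving out 1 library 31 to 66 and 0 to 4. For the difference from T47D (9 and 5) the replicate block gave 1 and 0, and leaving out 1 library 1 to 23 and 0 to 9. The causes were not tested. Depth limits genes near the floor of 3 reads per library.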
